A study of Mus musculus with 35 samples.

Results

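Immediate early genes are genes whose transcripts appear within minutes of a stimulus, without new protein synthesis, and many of them also appear when brain tissue is warmed and dissociated into single cells. A set of 42 such genes was described here in microglia, the resident macrophages of the brain. The genes were listed by name, with earlier results of these data known, and all 42 were among the 21236 genes of the deposited count table. As background, serum response factor, CREB and NF-kB, already present in a resting cell, switch these genes on. Their products are transcription factors of the AP-1, EGR, KLF and NR4A families, and brakes such as the DUSP phosphatases, the IkB proteins and the ZFP36 proteins that mark short-lived mRNAs for decay. In microglia the same genes are known to respond to tissue injury and to enzymatic dissociation.

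The libraries came from adult mice that carried Tmem119-2A-CreERT2 and Ai14(RCL-tdTomato)-D, and all of them had received tamoxifen, which lets Cre switch on the red reporter in cells that use the microglial gene Tmem119. Reporter-positive cells were sorted from midbrain (12 libraries), striatum (12 libraries) and prefrontal cortex (PFC, 11 libraries) of 12 mice, 6 male and 6 female. All groups therefore shared the genotype, the drug, the dissociation and the sort, and no unsorted or undissociated tissue was compared. Cells were dissociated enzymatically in a heated device, and the sources used here mention no transcription inhibitor. Expression present in the living brain and expression gained during preparation cannot be told apart.

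Total counts ran from 37680501 to 54131421 per library, so that 3 counts, taken as the floor, equalled 0.0561 to 0.0789 CPM (counts scaled to the library total with TMM factors). Microglial markers (12 genes, Tmem119, P2ry12 and Csf1r among them) summed to between 43297 and 55139 CPM in every library, and none of the markers of any cell type in the table was at 0 in all libraries. The 8 neuronal markers summed to between 2.31 and 27.1 CPM. One library carried a column name for PFC and a label for striatum, and was used as the striatum of mouse 3, as labelled. Without it, the counts of genes called by adjusted p were the same, with the same genes. The libraries with the lowest mean over the 42 genes, the striatum of mice 3, 8 and 12 and the midbrain of mouse 5, are described before the regional results, and the regional calls are given with and without them. Leaving out a library picked by these same genes lifts their values in its region by the choice itself. In these bulk samples, fewer cells that express a gene and less RNA per cell cannot be told apart.

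Promoters from RefSeq (GRCm38.p6, 250 bases before to 50 after the start) were matched for 35 of the 42 genes. Several are shown because their genes lead the results below, or because they hold 2 copies of a motif. Klf6 and Maff were lower in the striatum, Dusp5 and Nfkbia were lower there by some fits, and Hspa1a and Hspa1b varied most among the well-expressed genes. Capitals mark a match, on either strand, to a CArG box (the serum response factor site), an NF-kB site, a cAMP response element (TGACGTCA), an AP-1 site (TGANTCA) or a heat shock element (GAANNTTC). Each run lies upstream of both the RefSeq start and the GENCODE M21 gene model.
Klf6, chr13:5861239-5861481, plus strand: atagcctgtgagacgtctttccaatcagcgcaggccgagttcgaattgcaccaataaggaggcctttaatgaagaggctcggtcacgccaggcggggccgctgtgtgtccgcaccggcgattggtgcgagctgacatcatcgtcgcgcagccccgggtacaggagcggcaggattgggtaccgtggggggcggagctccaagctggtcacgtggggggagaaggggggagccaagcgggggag
Maff, chr15:79346371-79346620, plus strand: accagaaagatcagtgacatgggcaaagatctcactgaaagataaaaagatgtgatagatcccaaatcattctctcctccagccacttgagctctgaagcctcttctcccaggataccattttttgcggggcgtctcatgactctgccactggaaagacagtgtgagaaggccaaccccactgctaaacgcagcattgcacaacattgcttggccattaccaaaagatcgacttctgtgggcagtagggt
Dusp5, chr19:53528895-53529108, plus strand: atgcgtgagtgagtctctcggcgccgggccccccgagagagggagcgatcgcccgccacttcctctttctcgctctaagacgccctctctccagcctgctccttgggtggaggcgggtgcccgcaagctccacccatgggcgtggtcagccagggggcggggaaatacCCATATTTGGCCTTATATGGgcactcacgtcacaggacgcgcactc
Nfkbia, chr12:55492648-55492897, minus strand: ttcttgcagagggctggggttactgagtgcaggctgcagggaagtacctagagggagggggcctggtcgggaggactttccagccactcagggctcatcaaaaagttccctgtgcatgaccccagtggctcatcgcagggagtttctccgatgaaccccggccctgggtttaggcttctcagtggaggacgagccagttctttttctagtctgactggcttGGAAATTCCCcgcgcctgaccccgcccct
Hspa1a, chr17:34972157-34972406, minus strand: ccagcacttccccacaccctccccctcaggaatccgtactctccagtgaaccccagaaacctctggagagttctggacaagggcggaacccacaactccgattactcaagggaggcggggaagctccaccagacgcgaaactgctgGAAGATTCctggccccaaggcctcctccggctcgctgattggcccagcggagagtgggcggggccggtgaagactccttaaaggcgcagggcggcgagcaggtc
Hspa1b, chr17:34959239-34959488, minus strand: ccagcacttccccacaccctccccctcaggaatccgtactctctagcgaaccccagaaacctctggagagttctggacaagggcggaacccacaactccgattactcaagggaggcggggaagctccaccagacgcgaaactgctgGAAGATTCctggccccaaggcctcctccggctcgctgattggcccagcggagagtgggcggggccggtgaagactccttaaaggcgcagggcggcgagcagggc
The Klf6 and Maff windows held none of these motifs. Dusp5, a phosphatase of ERK, held 2 CArG boxes, which began 82 and 72 bases before its start. Nfkbia, which encodes the NF-kB inhibitor IkB-alpha, held an NF-kB site that began 29 bases before its start. The upstream runs of Hspa1a and Hspa1b were identical at 247 of 250 bases, and each held a heat shock element 104 bases before the start.

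Over the 35 promoters, a CArG box was found in 2 (Dusp5 and Zfp36, 5.71%, against 1.33% of 12442 promoters of genes in the table) and a cAMP response element in 3 (Btg2, Dusp1 and Ppp1r15a, 8.57% against 3.02%). An NF-kB site was found in 7 (Egr2, Fos, Fosb, Fosl2, Ier3, Nfkbia and Nr4a1, 20% against 7.93%), a heat shock element in 4 (Fosl2, Jun, Hspa1a and Hspa1b, 11.4% against 5.84%) and an AP-1 site in 1 (Zfp36l1, 2.86% against 5.16%). These matches describe letters in a short window and were not tested.

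The genes were among the most abundant transcripts of these cells. Of 116 genes with a mean of at least 1000 CPM, 14 belonged to the set, and the 42 genes took between 3.49% and 7.09% of all counts in a library. On the scale of CPM per kilobase of exon, which allows levels of different genes to be compared, 5 of them were among the 20 highest genes of the table, 12 among the 100 highest and 31 among the 1000 highest. The highest were Fos, a partner in the AP-1 dimer, at 2303 CPM per kilobase (rank 15), Nfkbia at 2102 (rank 17), Atf3, a stress-induced AP-1 partner, at 1878 (rank 18), Junb at 1767 (rank 19), Jun at 1751 (rank 20) and Btg2, an antiproliferative cofactor of mRNA decay, at 1469 (rank 29). They were followed by Ier2 at rank 37, the zinc finger factor Egr1 at rank 39, Dusp1, a phosphatase of p38 and JNK, at rank 40, and Jund at rank 55.

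**Figure D1:**
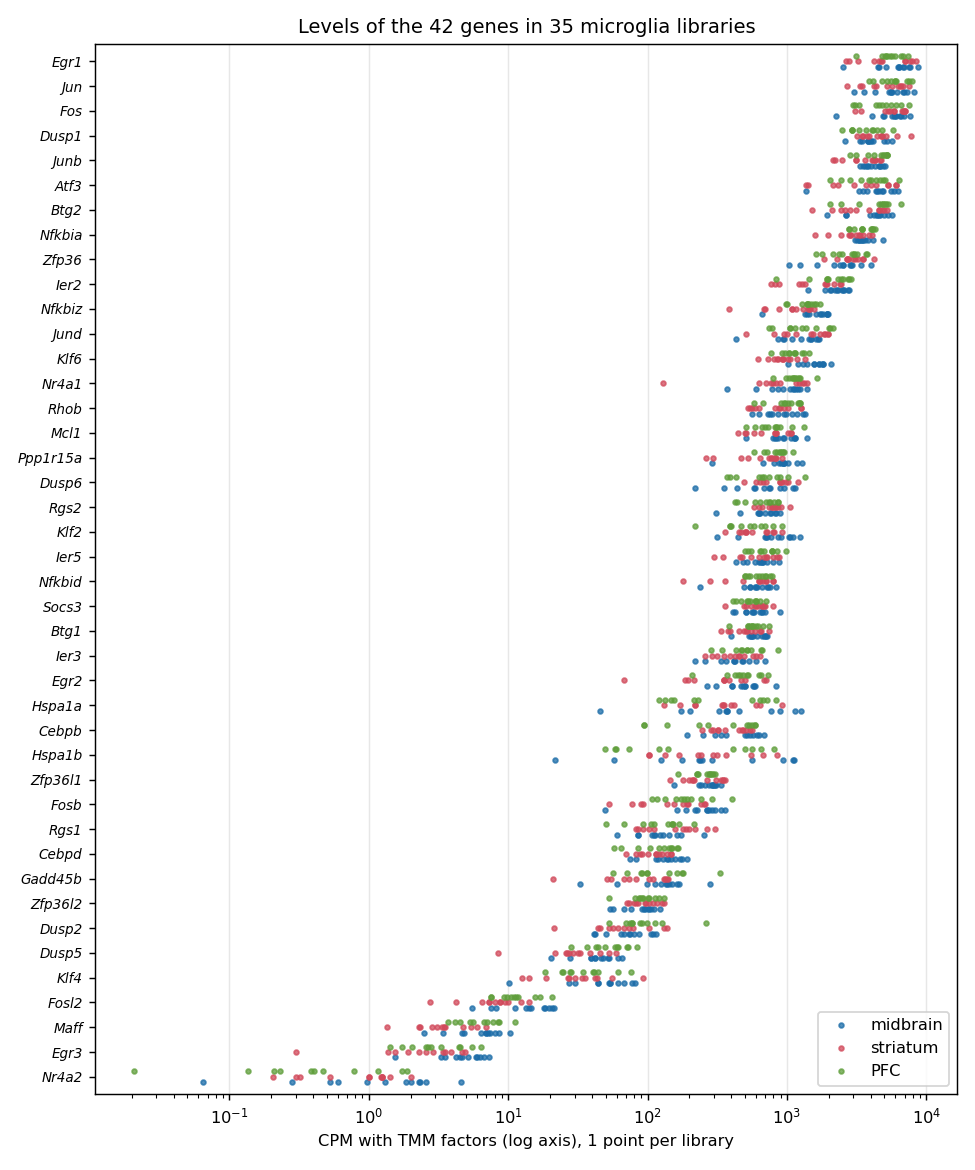
Levels of the 42 genes. The x axis is CPM on a log scale, each point is 1 of 35 libraries and colours give the region; genes are ordered by their mean. The regions overlap for every gene, and Nr4a2, Egr3, Maff and Fosl2 sit below the others.

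Fos, at the top of the set, ran from 2240 CPM (midbrain of mouse 12) to 7645 CPM (midbrain of mouse 9). By region its lowest, median and highest libraries were 2240, 5956 and 7645 CPM in midbrain, 3078, 5842 and 7046 CPM in striatum and 2964, 4790 and 7539 CPM in PFC. The 3 ranges overlapped almost wholly. Jun ran from 2689 to 8095 CPM, Junb from 2153 to 5258 CPM and Egr1 from 2532 to 8749 CPM over all libraries. Other members of the same gene families were far less abundant. Fosl2 had a mean of 1.19 CPM per kilobase (rank 10157), Egr3 0.843 (rank 10955) and Maff, a small Maf protein without a transactivation domain, 2.16 (rank 8608). Nr4a2, an orphan nuclear receptor, was lowest at 0.272 (rank 13575). It was also the only member with a library under the floor, 1 count in the PFC of mouse 6.

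Roles differed in level and in spread. The 8 AP-1 and ATF genes (Fos, Fosb, Fosl2, Jun, Junb, Jund, Atf3 and Maff) had means of 5.6 to 5583 CPM and a median SD of 0.593 on the log2 scale over the libraries. The 10 zinc finger, orphan receptor and C/EBP factors (Egr1, Egr2, Egr3, Klf2, Klf4, Klf6, Nr4a1, Nr4a2, Cebpb and Cebpd) spread more, with a median SD of 0.677. The 10 phosphatases and signal brakes (Dusp1, Dusp2, Dusp5, Dusp6, Nfkbia, Nfkbid, Nfkbiz, Socs3, Rgs1 and Rgs2) had a median SD of 0.504. The 9 stress and survival genes (Hspa1a, Hspa1b, Ppp1r15a, Gadd45b, Mcl1, Rhob, Ier2, Ier3 and Ier5) had 0.534, and the 5 genes of mRNA decay and growth arrest (Zfp36, Zfp36l1, Zfp36l2, Btg1 and Btg2) had the smallest, 0.339.

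The genes varied more between libraries than most genes of like abundance. Among genes that averaged 50 CPM or more, the median SD of log2 CPM was 0.485 for 36 members and 0.186 for all 3291 genes. Only 92 of the 3291 genes, members among them, reached 0.531, the median SD of all 42 members. The largest SDs in the set were 1.44 for Hspa1b, 1.41 for Nr4a2, 1.08 for Hspa1a, 0.885 for Egr3, 0.797 for Gadd45b and 0.770 for Klf4. Btg1 (SD 0.291) and Socs3, a brake on cytokine signalling (SD 0.286), varied least.

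Hspa1a and Hspa1b, which encode the heat-inducible HSP70 chaperone, had a larger share of their variation between mice than between regions. In mouse 7, Hspa1b stood at 1122 CPM in midbrain, 855 CPM in striatum and 497 CPM in PFC. In mouse 12 it stood at 930, 676 and 807 CPM in the same order. In mouse 9 it stood at 57.3, 103 and 59.1 CPM, and in mouse 2 at 125, 102 and 49.7 CPM. Other mice differed more within themselves, with 1107, 170 and 562 CPM in mouse 8 and 563, 134 and 407 CPM in mouse 6. The highest library of a mouse exceeded its lowest by 1.38 times in mouse 12 and by 11.3 times in mouse 5. The lowest library of all was the midbrain of mouse 5, at 21.6 CPM, while its striatum had 244 CPM and its PFC 120 CPM. The mouse accounted for 68.2% of the sum of squares of log2 CPM for Hspa1b and 66.5% for Hspa1a, and the region for 2.21% and 1.48%. There are more mice than regions, so a larger share for the mouse arises in part without any effect of the mouse. Over the whole set the median shares were 44.7% for the mouse and 9.54% for the region, close to those of the 12297 genes that averaged 1 CPM or more (45.7% and 8.6%). The mouse share was largest for Btg2 (78.6%), Ier3 (75.1%) and Rgs1 (74.8%), and smallest for Nr4a2 (17.7%). The separate counts of the HSP70 genes are uncertain. Their transcripts were identical at 99.1% of 2210 aligned bases, and the sources used here do not say how reads with several matches were counted. Counts are uncertain in the same way for members that overlap another gene of the table, since the use of strand is not stated: Cebpb (Tmem189), Cebpd (Spidr), Dusp1 (Ergic1 and Gm8225), Hspa1a (Gm20481), Jun (Junos), Junb (Prdx2), Jund (Gm11175), Ppp1r15a (Tulp2) and Zfp36l1 (Gm26669).

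Within these libraries the genes tended to move together. After region and sex were removed, the median Pearson correlation over the 861 pairs of members was 0.312 across the 35 libraries, against 0.0023 over all pairs of expressed genes, and 34.6% of the members' pairs exceeded 0.5, against 5.67%. Among genes that averaged 50 CPM or more, 34.9% of the pairs of 36 members exceeded 0.5, against 11.7% of all pairs. The medians there were 0.311 and 0.0131. The points share mice and libraries, and no p-value was computed. Hspa1a and Hspa1b had the highest correlation (0.988), followed by Fosb with Atf3 (0.921), Atf3 with Nfkbid (0.898) and Gadd45b with Maff (0.889). Of the members' pairs, 26.4% were negative, with Dusp6, a phosphatase of ERK, against Gadd45b (-0.733) at the end. The members with the highest mean correlation with the others were Nfkbid and Nfkbiz (each 0.464), both atypical IkB proteins, while Dusp1 (-0.078) and Rgs1 (-0.042) had the lowest.

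**Figure D2:**
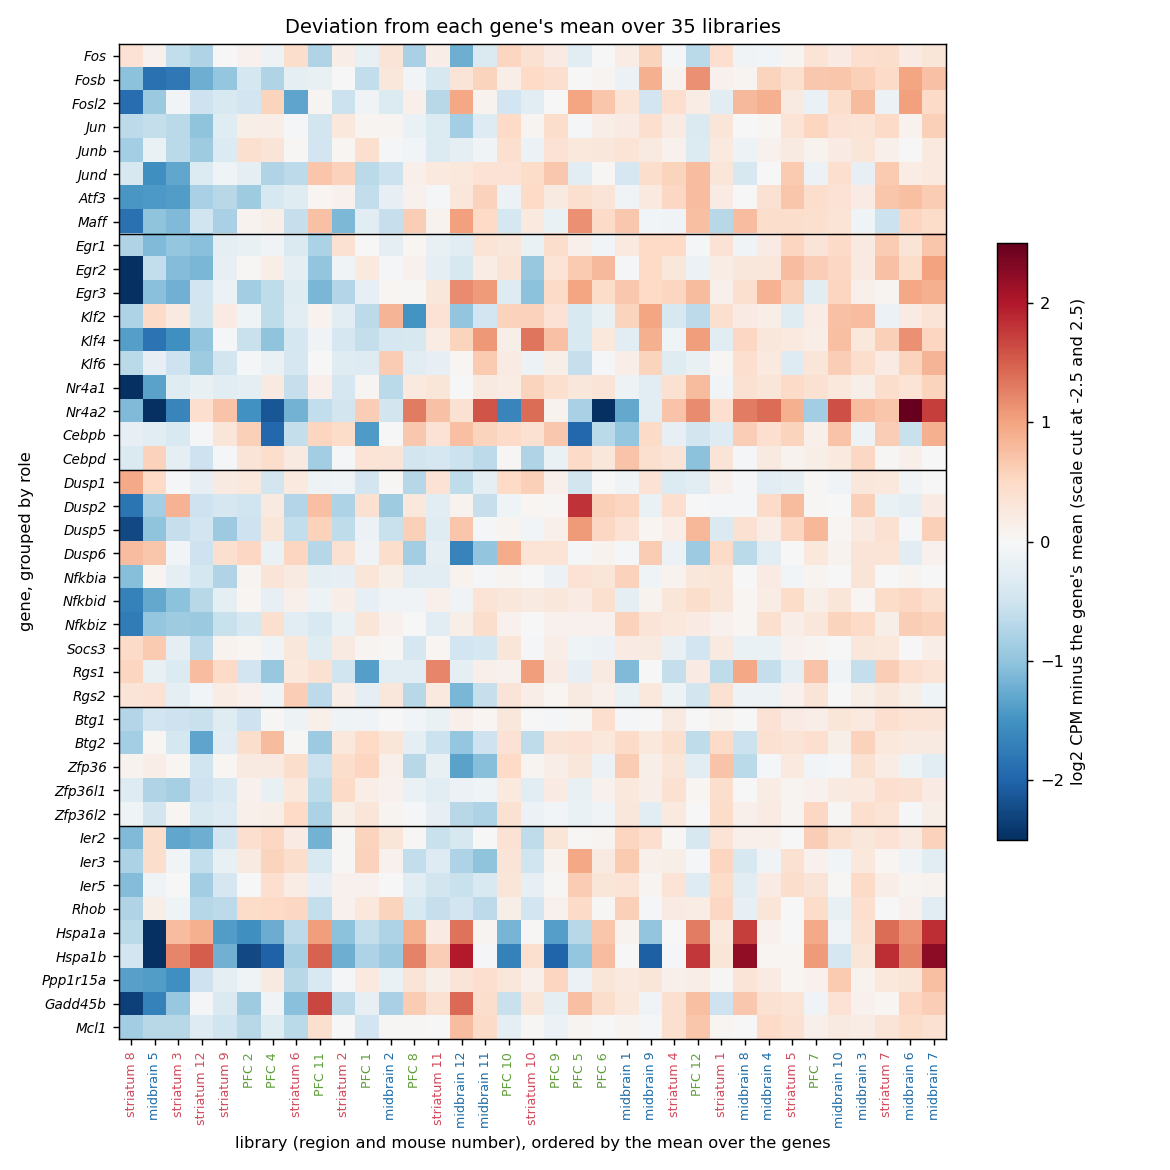
Deviation of each gene from its own mean, in log2 CPM, in 35 libraries ordered from the lowest to the highest mean over the genes; horizontal lines part the 5 roles and label colours give the region (blue midbrain, red striatum, green PFC). The 4 libraries at the left share 23 genes below their means, which the order by mean itself favours. Hspa1b is lowest in the midbrain of mouse 5 and highest in that of mouse 7.

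The libraries with the lowest mean of the set shared many low genes and differed in the most extreme ones. They were picked by the mean of these same genes, so many members below their means follow from the choice itself. The number of shared low members was not tested against other genes, and no conclusion is drawn from it. The mean deviation of the 42 genes was -0.92 in the striatum of mouse 8, -0.675 in the midbrain of mouse 5, -0.532 in the striatum of mouse 3 and -0.483 in the striatum of mouse 12. The next lowest library, the striatum of mouse 9, was at -0.285, and the highest, the midbrain of mouse 7, was at 0.476.

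In all 4 low libraries, 23 members were below their means, and 10 were more than 0.5 below on the log2 scale: Atf3, Egr1, Egr2, Fosb, Jun, Klf4, Maff, Nfkbid, Nfkbiz and Ppp1r15a. Fosb, for example, was at -1.02, -1.87, -1.79 and -1.22 in the order above, and Egr1 at -0.755, -1.10, -0.958 and -1.04.

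In the striatum of mouse 8, 18 members lay more than 1 below their mean on the log2 scale. The lowest were Egr3 (-3.24), Nr4a1 (-2.87), Egr2 (-2.60), Gadd45b (-2.34) and Dusp5 (-2.26), while Dusp1 (0.945) and Dusp6 (0.777) were above theirs. In the midbrain of mouse 5 the lowest were Hspa1b (-3.45), Hspa1a (-2.92), Nr4a2 (-2.87) and Fosb (-1.87), and Dusp6 (0.692) and Socs3 (0.653) were above their means. In the striatum of mouse 3, Fosb (-1.79), Nr4a2 (-1.66) and Klf4 (-1.53) were low, and Hspa1b (1.22) was high. In the striatum of mouse 12, Btg2 (-1.32), Fosb (-1.22) and Ier2 (-1.21) were low, and Hspa1b (1.51) was high. These 4 libraries had 17719 to 19582 genes detected and totals of 44328805 to 51704354 counts, inside the range of the others. Their microglial marker sums were 48493 to 55139 CPM, and that of the striatum of mouse 3 was the highest of the 35, as was its share of mitochondrial counts (1.4%).

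**Figure D3:**
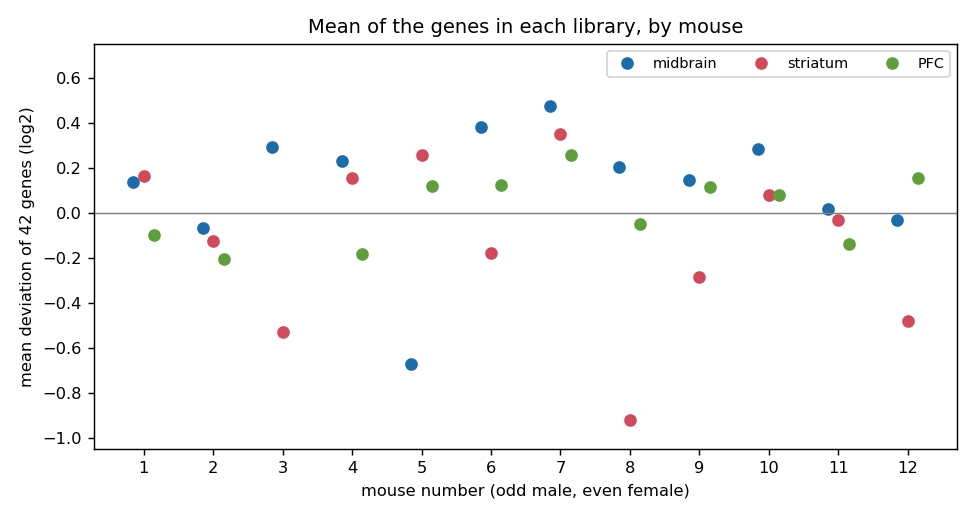
Mean deviation of the 42 genes (log2) in each library, by mouse number, with odd numbers male and even numbers female; colours give the region. The striatum of mouse 8 is lowest at -0.92 and the midbrain of mouse 7 highest at 0.476.

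Libraries of the same mouse resembled each other. The deviations of the 42 genes from their group means correlated at a mean of 0.395 over the 34 pairs of libraries from one mouse, and at -0.115 over 255 pairs from other mice of the same sex. For all expressed genes these means were 0.225 and -0.0939. Taking deviations from group means itself pulls libraries of one group toward negative correlation, which lowers the values for other mice. Within mice, the striatal mean over the set was below that of midbrain in 10 of 12 mice and below that of PFC in 4 of 11. The PFC mean was below that of midbrain in 9 of 11.

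Which of the genes differed between regions was asked in a fit of region and sex over all libraries and genes. Fosl2, Klf6 and Maff passed the test of region (edgeR quasi-likelihood F-test, Benjamini-Hochberg adjusted p under 0.05), 3 of 42 genes or 7.14%, against 8.89% of all genes. For a pair of regions, a gene also needed p under 0.05 for the pair and a fold change over 1.2. By this rule Klf6 was lower in PFC than in midbrain (2.38% of the members, against 3.24% of all genes). Fosl2, Klf6 and Maff were lower in striatum than in midbrain (7.14% against 2.98%), and Fosl2 and Maff were lower in striatum than in PFC (4.76% against 0.833%). No member was higher in PFC or striatum by this rule.

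Klf6, a zinc finger factor induced by injury and by inflammatory signals, had the smallest adjusted p for region in the set. Larger fold changes than its own, with wider errors, were those of Egr3, Fosl2 and Maff in striatum and of Nr4a2, Klf2 and Egr3 in PFC. Its lowest, median and highest libraries were 1011, 1635 and 2083 CPM in midbrain, 625, 933 and 1344 CPM in striatum and 774, 1124 and 1442 CPM in PFC. In 8 of 12 striatal libraries it was below the lowest midbrain library, and in 3 of 11 PFC libraries. Its mean was 1578 ± 304 CPM (SD, n = 12) in midbrain, 940 ± 195 CPM (n = 12) in striatum and 1109 ± 193 CPM (n = 11) in PFC. Against midbrain, Klf6 was lower in striatum by a log2 fold change of -0.75 ± 0.109 (SE, edgeR adjusted p = 1.57e-05), in 12 of 12 mice, and lower in PFC by -0.505 ± 0.111 (edgeR adjusted p = 0.00251), in 11 of 11 mice. Between striatum and PFC the log2 fold change of -0.25 (edgeR p = 0.0326) was below the minimum fold. With the mouse as a block the change against the midbrain was -0.74 for striatum and -0.51 for PFC. Without the striatum of mice 3, 8 and 12 the change for striatum was -0.65.

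Maff ran from 2.51 to 10.3 CPM in midbrain (median 6.95), from 1.36 to 6.91 CPM in striatum (median 3.43) and from 3.71 to 11.2 CPM in PFC (median 6.7). The striatal libraries lay below the midbrain median in 12 of 12 cases, but the ranges overlapped. Its log2 fold change was -0.76 ± 0.225 (SE) for striatum against midbrain, lower in 11 of 12 mice, and -0.81 ± 0.229 for striatum against PFC, lower in 10 of 11 mice (edgeR adjusted p = 0.0299 and 0.0879 for the pairs and 0.0262 for region).

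Fosl2 encodes FRA2, an AP-1 partner with slower kinetics than FOS. It ran from 5.47 to 21.4 CPM in midbrain (median 14.4), from 2.78 to 14.1 CPM in striatum (median 8.39) and from 7.49 to 20.7 CPM in PFC (median 10.9). Here too the striatum was low and the ranges overlapped. Its log2 fold change was -0.79 ± 0.221 (SE) for striatum against midbrain, lower in 10 of 12 mice, and -0.53 ± 0.224 for striatum against PFC, lower in 9 of 11 mice (edgeR adjusted p = 0.0225 and 0.321 for the pairs and 0.0472 for region). When each mouse or a low library was left out in turn, in 16 fits, Klf6 kept its calls in all of them. Maff lost its calls in 5, without mouse 6, 7, 8 or 12 or the striatum of mouse 8, with log2 fold changes against the midbrain of -0.96 to -0.642 over the 16. Fosl2 lost its calls in 11 (-0.933 to -0.666), and kept them without mouse 4, 5 or 9, the striatum of mouse 3 or the midbrain of mouse 5. Without mouse 5, 7 members passed the test of region, with Egr3, Dusp5, Nfkbiz and Ppp1r15a added, against 8.73% of all genes in that fit. Without the midbrain of mouse 5 alone there were 6, against 9.35%. With the striatum of mice 3, 8 and 12 left out together, the log2 fold changes against the midbrain were -0.60 for Maff and -0.69 for Fosl2, and only Klf6 passed the test of region.

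**Figure D4:**
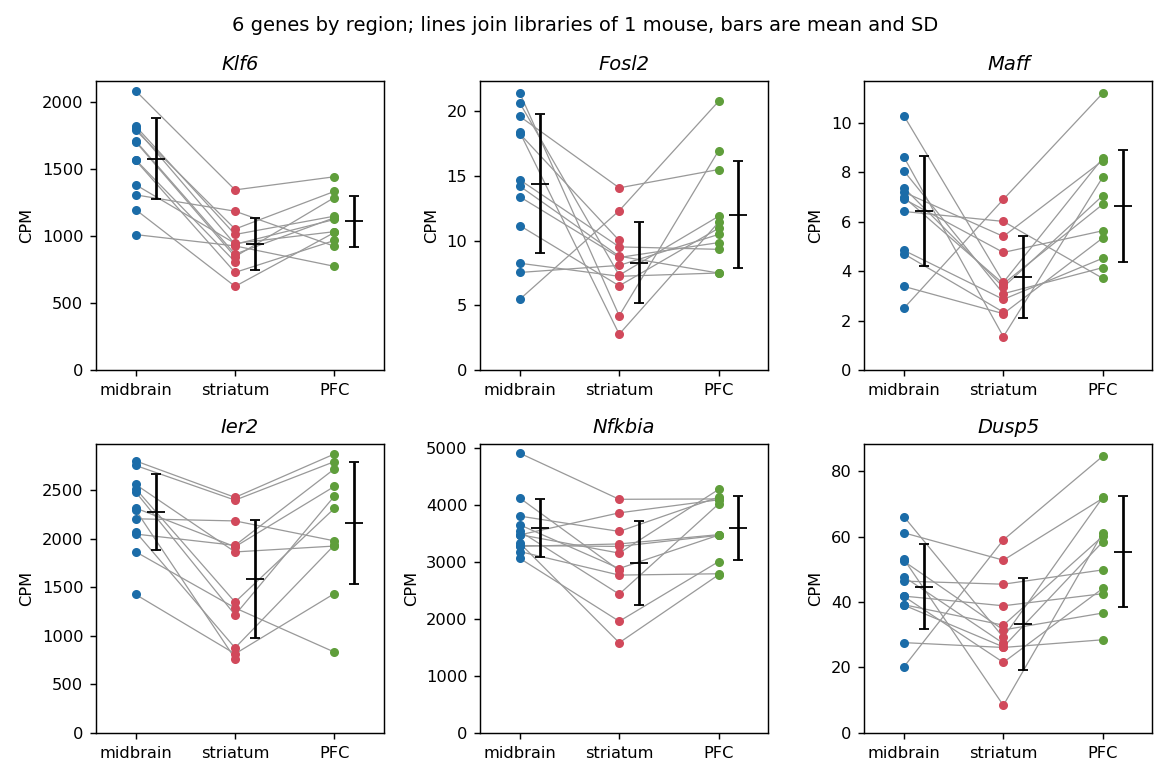
CPM of 6 genes by region. Points are libraries, grey lines join the libraries of 1 mouse, and the black bars are the mean and SD (n = 12, 12 and 11). Klf6 is lower in striatum than in midbrain in 12 of 12 mice, while the other genes overlap more between regions.

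More of the genes were lower in the striatum at an unadjusted p than the share of all genes. With p under 0.05 and a fold over 1.2 alone, 12 members (28.6%) were lower in striatum than in midbrain, against 5.58% of all genes. These were Fosb, Fosl2, Egr3, Klf2, Klf6, Ier2, Dusp5, Nfkbia, Nfkbiz, Ppp1r15a, Mcl1 and Maff. Against the PFC, 7 were lower in the striatum (Fosl2, Junb, Ier2, Dusp2, Dusp5, Nfkbia and Maff, 16.7% against 2.52%), and Dusp1 was higher, with a log2 fold change of 0.30 (edgeR p = 0.046). Between PFC and midbrain, 3 were lower in the PFC (Klf2, Klf6 and Nr4a2, 7.14% against 6.8%). Without the striatum of mice 3, 8 and 12 the count lower in striatum than in midbrain fell from 12 to 5 (Fosl2, Egr3, Klf6, Nfkbiz and Maff), and that against the PFC from 8 in either direction to 3. Without mouse 9 the first count was 7, and without mouse 8 or its striatum the second was 5. Without the library of disputed label, the striatum of mouse 3, the counts were 10 and 9. Without the midbrain of mouse 5 the counts were 15 and 11, and leaving out this library, picked for its low mean, lifts the midbrain values by the choice itself. The share of all genes in each of these leave-out fits is not given here, so these shifts cannot be assigned to the members alone.

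Over the whole set, more genes were lower than higher in the striatum. The median log2 fold change against the midbrain was -0.22, with 32 of 42 genes lower, and that of all expressed genes was -0.0053, with 51.2% lower. Against the PFC the median was -0.13 (28 of 42 lower), and that of all expressed genes was -0.007 (52.1% lower). The striatal mean over the set was below that of PFC in only 4 of 11 mice. Between PFC and midbrain the median was -0.07 (24 of 42 lower), and that of all expressed genes was 0.011 (46.9% lower). Without the striatum of mice 3, 8 and 12 the median against midbrain was -0.08 and that against PFC -0.05. Without the midbrain of mouse 5 they were -0.26 and -0.14. All 4 libraries were picked by the mean of these same genes, so these shifts follow in part from the choice. Within mice 1 to 6 these medians were -0.10 and 0.05, and within mice 7 to 12 they were -0.37 and -0.35. The comparisons share their libraries, and the genes are not independent. The share of mitochondrial counts also differed by region, with medians of 0.717% in midbrain, 0.887% in striatum and 1.01% in PFC, and its part in the regional values was not tested.

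**Figure D5:**
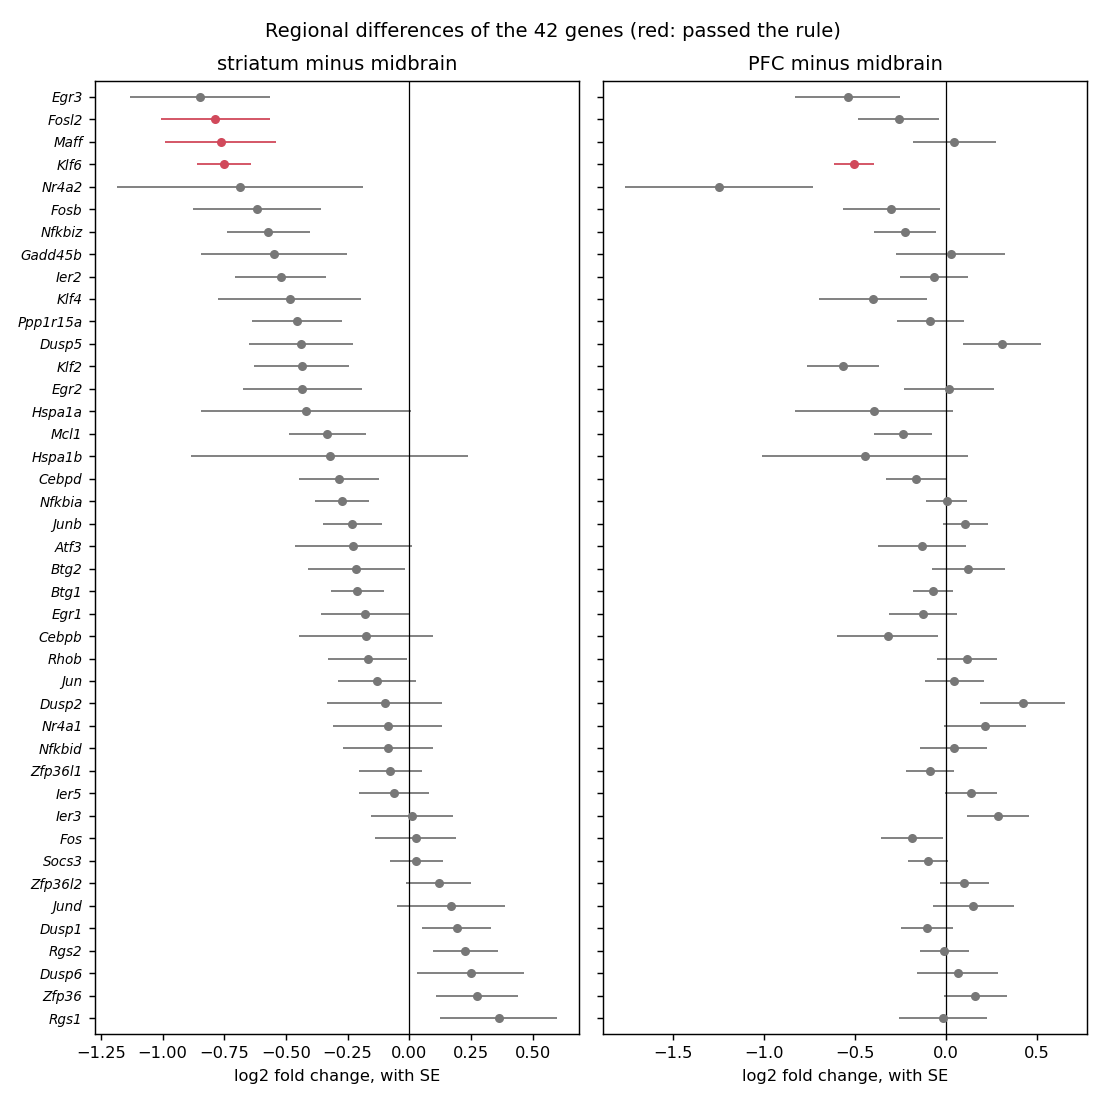
Log2 fold change with its SE for each of the 42 genes, striatum against midbrain (left) and PFC against midbrain (right), ordered by the left panel. Red points passed the rule for a pair: Klf6, Maff and Fosl2 on the left and Klf6 on the right.

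Each mouse gave libraries from several regions, and a fit that replaced sex by the mouse as a block called more members. It called 10 members for region, against 3 without the block, and the share of all genes was 14%. Besides Fosl2, Klf6 and Maff these were Junb, Klf2, Ier2, Ier3, Btg2, Nfkbia and Nfkbiz. With the block, 8 members were lower in striatum than in midbrain, 8 were lower in striatum than in PFC, 2 were lower in PFC than in midbrain (Klf2 and Klf6), and Ier3 was higher in PFC. Over all genes, in either direction, these pairs called 8.62%, 4.86% and 6.85%. Most of these calls were lost without the low striatal libraries. Those libraries were picked by the mean of these same genes, so leaving them out lifts the striatal values by the choice itself. Fewer libraries also remain. In the blocked fit without the striatum of mice 3, 8 and 12, Klf6 alone passed for region (against 10.6% of all genes), for striatum against midbrain and for PFC against midbrain, and 0 members passed for striatum against PFC. Without the midbrain of mouse 5 the blocked fit called 12 members for region (against 15% of all genes). It called 11 lower in striatum than in midbrain, 10 lower in striatum than in PFC and 4 lower in PFC than in midbrain. The shares of all genes for these pairs in that fit are not given here, so the counts cannot be assigned to the members alone. That library was also picked by these genes, so leaving it out lifts the midbrain values by the choice itself.

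Ier2, an early response gene with a nuclear product, had 1426, 2306 and 2802 CPM as its lowest, median and highest libraries in midbrain. In striatum these were 765, 1606 and 2426 CPM, and in PFC 832, 2314 and 2874 CPM. Ier2 was lower in striatum in 12 of 12 mice, with a log2 fold change of -0.60 in the blocked fit (edgeR adjusted p = 0.00433) and -0.52 ± 0.183 without the block. For Nfkbia the same libraries had 3062, 3477 and 4908 CPM in midbrain, 1582, 3020 and 4099 CPM in striatum and 2774, 3479 and 4271 CPM in PFC. Its blocked log2 fold changes were -0.30 for striatum against midbrain (10 of 12 mice lower) and -0.30 against PFC (11 of 11 mice lower). Dusp5 was lower in striatum than in PFC in 11 of 11 mice, with a log2 fold change of -0.75 ± 0.215 without the block. It did not pass the test of region in either fit (edgeR adjusted p = 0.0569 and 0.0562).

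Without the striatum of mice 3, 8 and 12, the blocked log2 fold change for striatum against midbrain was -0.41 for Ier2 and -0.18 for Nfkbia, and neither passed the test of region (edgeR adjusted p = 0.073 and 0.0782). Dusp5 was then -0.59 for striatum against PFC in the fit without the block. Without the midbrain of mouse 5, Dusp5 passed the test of region in both fits (edgeR adjusted p = 0.0352, and 0.0104 with the block). No conclusion is drawn from this, since that library was picked for the low mean of a set that holds Dusp5.

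Markers of microglia and of other cells moved with region as well. Of the 12 microglial markers, 5 passed the test of region, 4 of them higher in striatum and 2 higher in PFC than in midbrain, and their sums had medians of 45370 CPM in midbrain, 51080 CPM in striatum and 50040 CPM in PFC. The part of these markers in the regional values was not tested. The 8 astrocyte markers summed to 208 to 263 CPM in midbrain, 261 to 430 CPM in striatum and 260 to 494 CPM in PFC, and the 8 neuronal markers to 2.31 to 6.32, 6.62 to 15.4 and 10.3 to 27.1 CPM. Of these, 3 astrocyte and 5 neuronal markers passed the test of region. The 7 border macrophage markers in the table, Mrc1 and Pf4 among them, summed to medians of 96.4, 148 and 109 CPM in the same order, and 2 passed. The oligodendrocyte markers (8, of which 1 passed) had medians of 408, 453 and 294 CPM, the endothelial markers (9, of which 0 passed) 31.3, 40.9 and 32.4 CPM, the mural markers (6, of which 0 passed) 2.17, 4.86 and 4.21 CPM, and the monocyte and neutrophil markers (5, of which 2 passed) 2.00, 3.40 and 5.40 CPM. With an index of astrocyte, oligodendrocyte, neuronal, endothelial and mural markers as a covariate, Klf6 kept a log2 fold change of -0.73 for striatum against midbrain and -0.50 for PFC against midbrain (edgeR adjusted p = 5.15e-04 and 0.0037), Maff kept -0.85, and Fosl2 had -0.92 but no longer passed the test of region. The part of border macrophages, monocytes and neutrophils in these results was not tested.

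Whether the genes differed between the sexes was asked in the same fit. Dusp2, a nuclear phosphatase of ERK induced in activated immune cells, was the only member past p under 0.05 and a fold over 1.2 (2.38% of the members, against 4.13% of all genes). It ran from 21.2 to 113 CPM in females (median 74.1, n = 18) and from 41.9 to 264 CPM in males (median 77.6, n = 17), so that the medians were close. The log2 fold change was 0.45 ± 0.192 higher in males (edgeR p = 0.0238, adjusted p = 0.501). In this fit libraries of one mouse count as separate, and with the mouse as a random effect the p was 0.0514. No member passed an adjusted p under 0.05 for sex, against 0.339% of all genes. Without the striatum of mice 3, 8 and 12 the log2 fold change was 0.33 (edgeR p = 0.0831), and the call was also lost without mouse 2, 3 or 5.

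Within single regions, Socs3 was the only member called for sex in the midbrain (against 4.84% of all genes). It had 410 to 581 CPM in females and 421 to 899 CPM in males there, and a log2 fold change of 0.34 ± 0.151 (edgeR p = 0.0317, adjusted p = 0.86). The highest library was that of mouse 5, and the call was lost without it or without mouse 4, 9 or 12. No member was called in the striatum (2.28% of all genes) or in the PFC (5.29%) by edgeR, while DESeq2 called Egr2 in the striatum and Dusp2 in the PFC. The interaction of region and sex passed the adjusted threshold for 0 of 42 members and 0% of all genes (edgeR), and for 0 members with DESeq2 or limma-voom. At an unadjusted p under 0.05 it passed for 0 members, against 2.98% of all genes, and the smallest p in the set was 0.137, for Fosl2.

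Genes of the same pathways that were not in the set were read from 5 further lists, in the fit without the block. Every gene listed was in the table. The counts below stand against 8.89% of all genes that passed the test of region. Of 26 further immediate early genes, 4 passed the test of region. Phlda1, a pro-apoptotic early gene, had a median of 15.6 CPM in midbrain, 7.36 CPM in striatum and 8.74 CPM in PFC, and log2 fold changes against the midbrain of -1.01 ± 0.188 for striatum and -0.785 ± 0.191 for PFC. Trib1, a pseudokinase that scaffolds C/EBP degradation, and Dusp16, a phosphatase of JNK, were lower in striatum than in midbrain by log2 fold changes of -0.56 ± 0.144 and -0.48 ± 0.122. Sgk1, a kinase induced by glucocorticoids, was higher in striatum than in PFC (log2 fold change 0.44), with medians of 3101 and 2058 CPM.

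Of 16 rapid cytokines and NF-kB targets, 3 passed, and all 3 were lower in striatum than in midbrain. Il1a, which encodes interleukin 1 alpha, had 1149, 3097 and 4328 CPM as its lowest, median and highest libraries in midbrain and 440, 1887 and 2504 CPM in striatum, a log2 fold change of -0.82 ± 0.186. Tnf fell by 0.68 ± 0.19 on the log2 scale, and Il6, at a mean of 9.48 CPM, by 0.39 in striatum and by 0.69 in PFC. Of 11 other AP-1, Maf and ATF genes, Batf3, Maf and Atf4 passed. Batf3 was lower than the midbrain in both other regions (-0.30 in striatum and -0.365 in PFC), Maf was higher in PFC (0.36), and Atf4, a factor of the integrated stress response, was lower in striatum (-0.48). Of 20 upstream kinases and factors only Nfkb1 passed the test of region, and no pair of regions differed by the fold required. Of 13 chaperones and stress genes only Xbp1 passed, lower in striatum (-0.32 ± 0.0805).

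Several calls of these pathway genes also changed without the low libraries, where fewer libraries remained. Without the striatum of mice 3, 8 and 12, against 6.49% of all genes, Phlda1 (-0.86 in striatum), Sgk1, Il1a (-0.63 in striatum), Il6, Batf3 and Nfkb1 still passed the test of region. Trib1, Dusp16, Tnf, Maf, Atf4 and Xbp1 did not, but kept their directions against the midbrain. In striatum the log2 fold changes were -0.508 for Trib1, -0.438 for Dusp16, -0.539 for Tnf, -0.341 for Atf4 and -0.244 for Xbp1. That of Maf in PFC was 0.356. Without the midbrain of mouse 5, against 9.35% of all genes, 6 of 26 further immediate early genes and 6 of 16 cytokines and NF-kB targets passed. The cytokine genes were then Tnf, Il1a, Il1b, Cxcl2, Ptgs2 and Cxcl10, and Il6 no longer passed (edgeR adjusted p = 0.0678). Il1b, which encodes interleukin 1 beta, had a log2 fold change of -1.17 in striatum and -0.92 in PFC in that fit. With all libraries, or without the striatum of mice 3, 8 and 12, Il1b, Cxcl2, Ptgs2 and Cxcl10 did not pass.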

How the data were processed

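RNA of sorted microglia was measured in 35 libraries from 12 mice. The authors deposited raw counts per Ensembl gene: paired reads were checked with FastQC, trimmed with Trimmomatic and aligned to GRCm38 with HISAT2, and genes with low expression in every sex and region group were removed before deposit. The counter, its use of strand and its handling of multiply matched reads are not given in the sources used here. Totals exceed the read number in the labels, and whether mates were counted separately is not stated. The mouse number comes from the sample titles and pairs the regions of one animal, and deviations of libraries from one mouse correlated at a mean of 0.225 over 12297 genes.

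Counts were fitted with edgeR 4.0.16 in R 4.3.3 (TMM, robust quasi-likelihood, region and sex over all 21236 genes). Region needed an adjusted p under 0.05, a pair also p under 0.05 and a fold over 1.2, and sex p under 0.05 and that fold, as in the study's methods. Log2 CPM used a prior count of 2. Symbols and lengths came from GENCODE M21 (GRCm38), and promoters from RefSeq, with Biopython 1.88 for alignment. Simulated data had 200 of 21236 genes changed 1 log2 unit. At an adjusted p under 0.05 of the comparison itself, the fit found 186 (6 false) for PFC against midbrain. It found 184 (20 false) for striatum against midbrain and 190 (23 false) for sex. The simulated counts held no effect of the mouse. The false counts therefore do not describe the rules used for pairs and sex, or libraries that share mice.

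The members and lists were chosen with earlier results of these data known. Values are given for members called for region, a pair or sex, the 6 highest per length, the 6 with the largest SD, and up to 4 region-called genes of each pathway list; Hspa1a and Hspa1b by mouse, Fos, Ier2, Nfkbia and Dusp5 by region, Socs3, the pairs of highest and lowest correlation, the extreme members of the low libraries and Il1b were added after their values were seen. Alternatives were DESeq2 1.42.0, its size factors, 2 filters, the mouse as a block, 2 covariates, limma 3.58.1 with voom and the mouse as a random effect, mice 1 to 6 and 7 to 12 apart, other thresholds and prior counts, and each mouse left out. The fits without the libraries of lowest mean, with and without the block, and the counts at an unadjusted p under each setting, were added after the data were seen.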

Additional observations from a re-analysis of the deposited data

How the results depend on the processing

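Klf6 was called under all 29 alternatives for both pairs, while the other regional calls depended on the setting. The number of members called for region (3) was 5 with DESeq2, with filterByExpr and with a mean of at least 1 CPM (against 11.2%, 10.9% and 13.3% of all genes), 10 with the mouse number as a replicate block and 8 with limma-voom (14% of all genes in each), and 1 to 7 when a mouse or a library was left out. For PFC against midbrain (1) it was 3 with the block and 2 within mice 1 to 6, and 1 to 3 in the leave-out fits. For striatum against midbrain (3) it was 5 with DESeq2 and both filters, 8 with the block, 8 with limma-voom and 1 to 7 in the leave-out fits. For striatum against PFC (2) it was 4 with DESeq2 and with filterByExpr, 8 with the block, 1 with the marker covariate, 7 with limma-voom, 0 within mice 1 to 6, 0 by the adjusted p of the pair and 0 to 6 in the leave-out fits. With the striatum of mice 3, 8 and 12 left out together these 3 counts were 1 for region, 1 for striatum against midbrain and 0 for striatum against PFC, and they were the same in the paired fit with the block. With the block and without the midbrain of mouse 5, the counts were 12 for region, 4 for PFC against midbrain, 11 for striatum against midbrain and 10 for striatum against PFC, and 24 and 16 at an unadjusted p for striatum against midbrain and against PFC.

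At an unadjusted p, the count for striatum against midbrain (12) was 3 within mice 1 to 6, 5 without those 3 libraries and 7 to 16 in the leave-out fits. That for striatum against PFC (8) was 13 with the block, with the covariate for mice 1 to 6 against 7 to 12, with limma-voom and within mice 7 to 12, 3 within mice 1 to 6, 3 without those 3 libraries and 5 to 11 in the leave-out fits. For sex (1) the count was 0 with limma-voom, 0 by adjusted p, 0 without those 3 libraries, 2 within mice 1 to 6 and within mice 7 to 12 and 0 to 3 in the leave-out fits. Within the midbrain (1) it was 4 within mice 1 to 6, 0 within mice 7 to 12 and 0 to 4 in the leave-out fits. Within the striatum (0) it was 1 with DESeq2, its size factors, both filters, the covariate for mice 1 to 6 against 7 to 12 and within mice 1 to 6, 2 with limma-voom, 4 within mice 7 to 12 and 0 to 3 in the leave-out fits. Within the PFC (0) it was 1 with DESeq2, 4 within mice 1 to 6, 1 without those 3 libraries and 0 to 1 in the leave-out fits. The share of all genes called moved with the setting too, over all of these fits from 2.41% to 15% for region, 1.87% to 7.56% for PFC against midbrain, 1.94% to 9.52% for striatum against midbrain, 1.31% to 5.65% for striatum against PFC and 2.67% to 5.25% for sex. The shares for pairs are those of the rule with the test of region. For pairs at an unadjusted p alone they are not given here, so shifts in those counts cannot be assigned to the members alone. The causes were not tested. No fold change of a called member reversed; the set's median for striatum against PFC was 0.049 within mice 1 to 6, against -0.134. Nr4a2, Egr3, Maff and Fosl2, with means of 1.1 to 11.5 CPM, are the members that depth limits most.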
